A study of Mus musculus with 16 samples.

Results

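The genes described here are 42 genes of the endoplasmic reticulum (ER) that fold secretory proteins, sense misfolded protein or send it for degradation. They were chosen by name, with earlier results of these data known. All 42 were found by symbol among the 45513 gene identifiers of the count files, and all 42 were among the 15323 genes with enough counts to be tested. They fall into 27 folding genes, 5 stress sensors (4 sensors and the transcription factor Xbp1) and 10 degradation genes. The mice carried Atoh1(WT)CreERT2, with tamoxifen-inducible Cre recombinase placed downstream of the coding sequence of Atoh1, together with the R26RtdTom reporter, so that cells transcribing Atoh1 when tamoxifen was given, and the descendants of those cells, carried tdTomato. Atoh1 is the transcription factor that commits intestinal epithelial cells to the secretory lineages. Adult males and females of C57BL/6 background were used, and the labels state 1 mg tamoxifen per day for 3 days, given to every mouse. From the small intestine of each of 8 mice, live EpCAM+tdTom+ and EpCAM+tdTom− epithelial cells were sorted from crypt-enriched fractions, giving 8 tdTom+ and 8 tdTom− RNA-seq libraries. Both fractions thus came from the same mice, with the same alleles and the same treatment, and the number in a library's label names the mouse. Each fraction is a mixture of cell types, so a lower share of a cell type and less RNA per cell of that type cannot be told apart in these bulk counts.

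Proteins bound for the cell surface, granules or the mucus enter the ER unfolded. Chaperones of the heat shock protein families hold them, disulfide isomerases join their cysteines, and the lectins calnexin and calreticulin retain glycoproteins until they are folded. Proteins that fail are drawn back through the membrane, ubiquitinated and degraded, a route known as ER-associated degradation. The membrane sensors IRE1 (Ern1 and Ern2), PERK (Eif2ak3) and ATF6 (Atf6) report the load of unfolded protein, and IRE1 acts by splicing the mRNA of Xbp1. Goblet cells, which secrete mucin, and Paneth cells, which secrete antimicrobial peptides, are the main secretory cells of the small intestinal epithelium and hold an extensive ER.

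Many folding genes carry the ER stress response element, bound by ATF6 and XBP1 together with NF-Y, in their promoters. The 250 bases before the RefSeq start sites of 36 of the 42 genes (all but Atf6, Derl1, Ern2, Erp29, Hyou1 and Manf) were searched on both strands, counting a gene once where it had several starts (build GRCm38.p6). The element, CCAAT and CCACG held 9 bases apart, was present in 10 of the 36 genes and in 0.13% of all 27025 genes with a promoter in the same table. A variant called ERSE-II, ATTGG and CCACG held 1 base apart, was present in 1 of the 36 and in 0.037% of all genes, and the XBP1 motif TGACGTGG in 2 of the 36 and in 0.603%. The first 2 patterns share CCACG, but no site was counted under both. Sites of 9 genes are shown with 5 bases on either side, on the strand of the gene, with the letters of the pattern in capitals. Of the 13 genes with any of these patterns, 12 were higher in tdTom+ cells (adjusted p under 0.01) and 1, Canx, was lower. Of all 42 genes, 34 were higher and 3 lower. Calr and Canx, which moved in opposite directions, held the same element.
Hspa5, chr2:34772020-34772048, plus strand: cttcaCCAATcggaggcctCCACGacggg
Hsp90b1, chr10:86705633-86705661, minus strand: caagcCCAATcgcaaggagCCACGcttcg
Hsp90b1, chr10:86705528-86705556, minus strand: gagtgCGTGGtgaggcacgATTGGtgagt
Pdia6, chr12:17266486-17266514, plus strand: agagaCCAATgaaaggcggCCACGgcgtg
Calr, chr8:84847070-84847098, minus strand: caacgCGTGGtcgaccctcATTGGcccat
Canx, chr11:50325795-50325823, minus strand: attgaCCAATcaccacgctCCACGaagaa
Syvn1, chr19:6046527-6046555, plus strand: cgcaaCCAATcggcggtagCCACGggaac
Derl3, chr10:75893237-75893265, plus strand: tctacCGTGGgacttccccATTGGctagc
Herpud1 (ERSE-II), chr8:94386372-94386392, plus strand: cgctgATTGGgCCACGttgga
Txndc5 (XBP1 motif), chr13:38528040-38528057, minus strand: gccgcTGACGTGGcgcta
Where the capitals read CGTGG and then ATTGG, the element lay on the opposite strand. The Txndc5 site lay before the innermost of its start sites, within the annotated gene, and the windows of its other starts held no match. A match is a description of letters in this window and says nothing of whether a factor was bound there.

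The libraries held 17116405 to 25323567 counts assigned to genes. Levels are given as CPM (counts scaled to a fixed library total) adjusted by TMM factors. Atoh1 was counted at 48.0 to 80.1 CPM in the tdTom+ libraries and at 0.502 to 1.25 CPM in the tdTom− libraries, and Epcam at 864 to 1020 CPM and 963 to 1100 CPM. All 8 goblet cell markers examined were higher in tdTom+ cells, with a summed level of 128000 to 264000 CPM against 952 to 1510 CPM, as were all 8 Paneth cell markers, at 52700 to 139000 CPM against 405 to 595 CPM, all 8 enteroendocrine markers and all 7 tuft cell markers tested. All 8 absorptive enterocyte markers were lower, at 1560 to 6020 CPM against 14600 to 38300 CPM. Of 8 immune cell markers 6 were lower, at a sum of 5.96 to 28.9 CPM against 10.6 to 148 CPM, and 8 stromal markers summed to 2.78 to 4.11 CPM and 2.72 to 4.6 CPM. Most of these markers of cell type differed between the same fractions that every result below compares. Their part in the results was not tested. On the second principal component the tdTom− library of mouse 7 stood apart, at -70.2, followed by the tdTom− library of mouse 8 at -31.2 and the tdTom+ library of mouse 7 at -29.4, while the other 13 lay between -11.1 and 27.1. Counts are therefore also given without mice 7 and 8.

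Of the 42 ER genes, 34 were higher in tdTom+ cells than in tdTom− cells of the same mice (adjusted p under 0.01), where 25.8% of all genes tested were higher. Only 3, P4hb, Canx and Derl1, were lower, where 30.0% of all genes were lower, and 5 did not pass the test in either direction. Expressed as log2 fold change, the median of the 42 was 0.70, against 0.02 for all genes tested. In 33 of the 42 the difference had the same sign in all 8 mice, where 50.3% of all genes tested did. A difference of at least 1 on the log2 scale was found for 13 of the higher genes, where 11.4% of all genes tested rose that far. In 22 genes every tdTom+ library lay above every tdTom− library, where 14.6% of all genes were higher with no overlap. The 42 genes together took 1.01% to 1.17% of the counts of a tdTom+ library and 0.754% to 0.9% of those of a tdTom− library. Without mice 7 and 8, 33 genes were higher and 2 were lower.

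**Figure D1:**
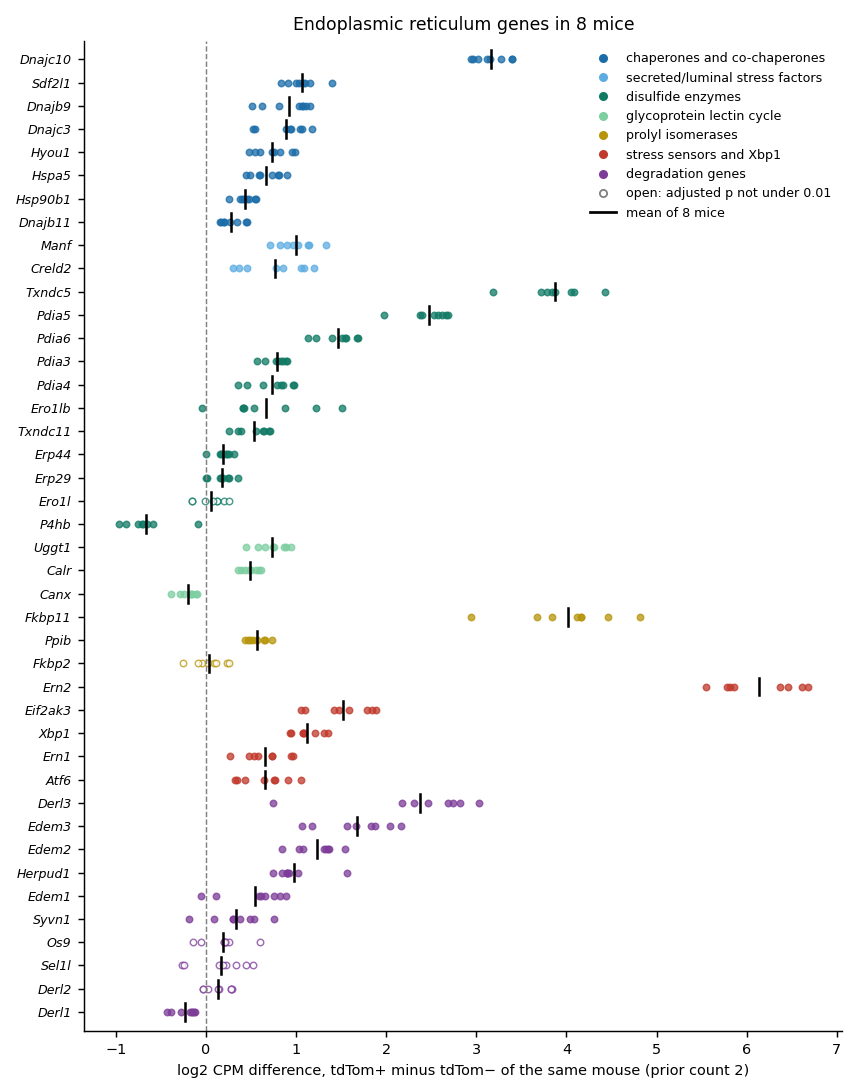
Each point is the log2 CPM difference between the tdTom+ and tdTom− libraries of 1 of 8 mice for 1 of the 42 genes, grouped and coloured by role, with a black bar at the mean; open points mark genes whose adjusted p was not under 0.01. Most genes lie to the right of 0, Ern2 lies farthest right, and P4hb, Canx and Derl1 lie to the left in all 8 mice.

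All 8 chaperones and co-chaperones of the ER lumen rose in tdTom+ cells, but by very different amounts. Hspa5, which encodes BiP, the central ER chaperone and the protein that keeps the stress sensors silent, was counted at 445 to 650 CPM (median 560) in tdTom− libraries and 623 to 1080 CPM (median 893) in tdTom+ libraries. The 2 ranges overlapped slightly, although Hspa5 mRNA was higher in tdTom+ cells of all 8 mice, and the log2 fold change was 0.67 ± 0.07 (SE, n = 8 mice, adjusted p = 9.5e-07). Hsp90b1, the ER member of the HSP90 family, ran from 423 to 602 CPM (median 481) in tdTom− and from 563 to 866 CPM (median 641) in tdTom+ libraries, a log2 fold change of 0.43 ± 0.06 (adjusted p = 1.2e-05). Both of these abundant chaperones had smaller log2 fold changes than 5 of the other 6 genes of the group.

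Dnajc10, which encodes ERdj5, a BiP partner that reduces disulfides in proteins marked for degradation, moved the most among the chaperones. Its level was 23.3 to 37.9 CPM (median 26.4) in tdTom− and 189 to 291 CPM (median 254) in tdTom+ libraries, with no overlap, and its log2 fold change was 3.16 ± 0.07 (adjusted p = 3e-13). Sdf2l1, a partner of ER J-proteins, went from 18.9 to 30.9 CPM in tdTom− libraries to 37.8 to 66.5 CPM in tdTom+ libraries, again without overlap, for a log2 fold change of 1.07. The J-proteins Dnajb9 and Dnajc3 rose by 0.92 and 0.89 on the log2 scale, also with separate ranges. Hyou1, the ER exchange factor of the HSP110 family, rose by 0.73 with overlapping ranges, and Dnajb11, another J-protein, rose by only 0.28 ± 0.05. The call for Dnajb11 was lost in the fit that did not pair the fractions (adjusted p = 0.0113 with no replicate block). Manf and Creld2, small ER proteins known to be induced by ER stress, rose by 1.00 and 0.77, and only Manf, at 55.8 to 77.2 CPM against 113 to 164 CPM, had separate ranges.

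**Figure D2:**
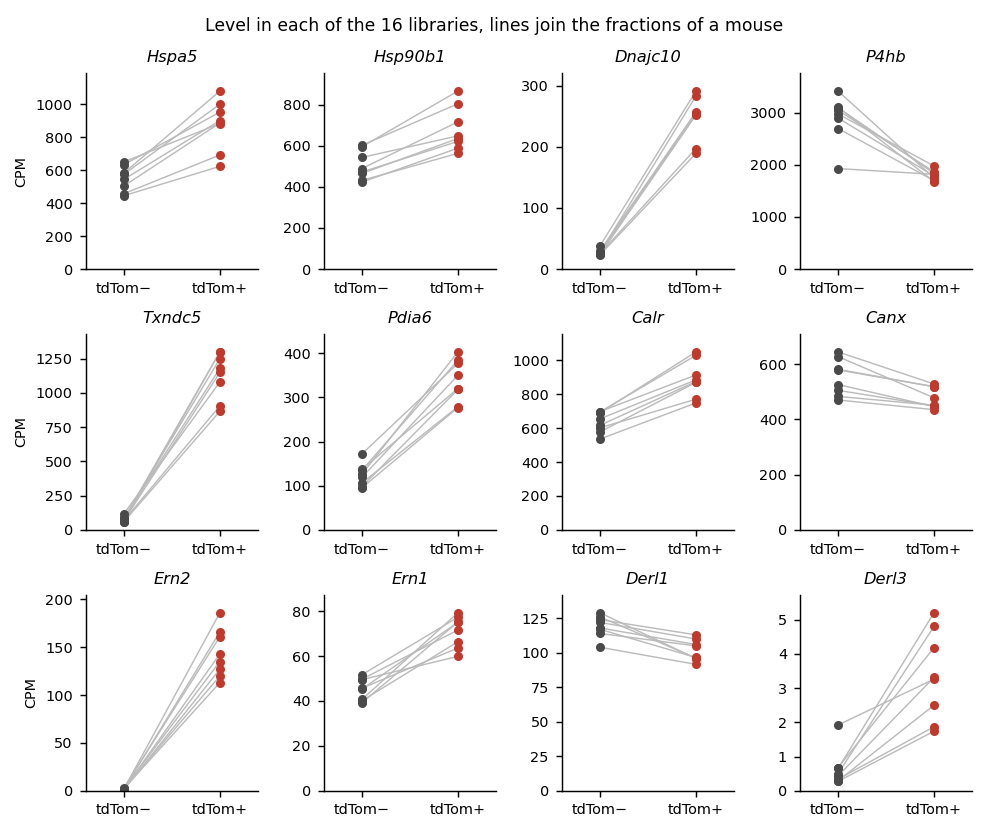
Level in CPM, on linear axes that start at 0, of 12 of the genes in every library, with lines joining the tdTom− (grey) and tdTom+ (red) libraries of a mouse. Dnajc10, Txndc5 and Ern2 are low in all 8 tdTom− libraries and high in all 8 tdTom+ libraries, P4hb falls in every mouse although by little in mouse 7, and Calr rises in every mouse while Canx falls.

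The 11 genes of disulfide bond formation did not move together: 9 rose, 1 fell and 1 did not pass. P4hb, the classical protein disulfide isomerase and also a subunit of the microsomal triglyceride transfer protein, was the only one to fall. Its level was 1930 to 3420 CPM (median 3020) in tdTom− and 1680 to 1980 CPM (median 1800) in tdTom+ libraries. The drop was present in all 8 mice, at a log2 fold change of -0.67 ± 0.09 (adjusted p = 2.1e-05). The lowest tdTom− library was that of mouse 7, and the other 7 held 2700 to 3420 CPM, so that without mouse 7 the ranges did not overlap and the log2 fold change was -0.75. Absorptive enterocyte markers moved in the same direction, as given above. P4hb made up 25.5% to 40.8% of the counts of the 42 genes in tdTom− libraries and 14.8% to 18.7% in tdTom+ libraries.

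Txndc5, a disulfide isomerase with several thioredoxin domains, showed the reverse. It was counted at 60.1 to 118 CPM (median 73.8) in tdTom− and 866 to 1300 CPM (median 1170) in tdTom+ libraries, for a log2 fold change of 3.87 ± 0.12 (adjusted p = 6.6e-12). From 0.718% to 1.56% of the counts of the 42 genes in tdTom− libraries, Txndc5 came to 9.28% to 11.4% in tdTom+ libraries. Pdia5 stood at 7.75 to 11.7 CPM in tdTom− and 45 to 74.2 CPM in tdTom+ libraries, a log2 fold change of 2.49. Pdia6, a regulator of IRE1 as well as an isomerase, ran from 95.3 to 172 CPM and from 277 to 403 CPM in the respective fractions, a log2 fold change of 1.47. Neither gene had overlapping ranges.

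Pdia3, the isomerase that works with calnexin and calreticulin, rose by 0.78 on the log2 scale, Pdia4 by 0.73 and Txndc11 by 0.53. Of the oxidases that supply disulfides to the isomerases, Ero1lb (also named Ero1b) rose by 0.66 ± 0.14, from 13.5 to 29.9 CPM in tdTom− to 29.0 to 50.5 CPM in tdTom+ libraries, and was higher in 7 of 8 mice. Ero1l (Ero1a), the more widely expressed oxidase, had a log2 fold change of 0.06 ± 0.06 (adjusted p = 0.385) and was higher in 5 of 8 mice. The thioredoxin-fold proteins Erp44, which returns escaped clients from the Golgi, and Erp29 passed with small values, 0.19 ± 0.05 (adjusted p = 0.00361) and 0.17 ± 0.05 (adjusted p = 0.00976). Both of these calls were lost when libraries were scaled by total counts (adjusted p = 0.0386 and 0.101), that of Erp44 also without mouse 1 or 2 (adjusted p = 0.0135 and 0.0126) and that of Erp29 without mouse 1, 2, 4, 5 or 6 (adjusted p = 0.0181 to 0.0316).

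The lectin cycle held genes that moved in opposite directions. Calr, the soluble lectin calreticulin, was counted at 536 to 698 CPM (median 636) in tdTom− and 749 to 1050 CPM (median 880) in tdTom+ libraries, and the ranges did not overlap (log2 fold change 0.49 ± 0.06, adjusted p = 4.2e-06). Canx, the membrane-bound lectin calnexin, ran from 470 to 644 CPM (median 552) in tdTom− and from 435 to 528 CPM (median 465) in tdTom+ libraries, a log2 fold change of -0.20 ± 0.06 (adjusted p = 0.00559). The Canx ranges overlapped, its level was lower in tdTom+ cells of all 8 mice, and its call was lost with no replicate block (adjusted p = 0.0356) and without mouse 3 (log2 fold change -0.10, adjusted p = 0.165) or mouse 1, 2, 5 or 7 (adjusted p = 0.0126 to 0.0204). Without mouse 3 the median of all genes tested also moved, from 0.02 to 0.12, and the Canx difference in mouse 3 itself was -0.17. Uggt1, the glucosyltransferase that returns unfolded glycoproteins to the lectins, rose by 0.74 with separate ranges.

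Among the prolyl isomerases, Fkbp11 changed most. Its counts were low in tdTom− cells, at 0.553 to 1.77 CPM (median 0.785), and reached 10.5 to 23.0 CPM (median 15.3) in tdTom+ cells, a log2 fold change of 4.08 ± 0.17 (adjusted p = 1.2e-10). Ppib, cyclophilin B, rose by 0.56, from 150 to 197 CPM to 232 to 273 CPM, with no overlap. Fkbp2 was counted at 38.2 to 49.5 CPM and 39.7 to 48.2 CPM, and its log2 fold change of 0.04 ± 0.06 did not pass (adjusted p = 0.629).

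All 5 stress sensor genes rose in tdTom+ cells, and in all 5 the ranges of the fractions were separate. Ern2 encodes IRE1 beta, the form of the sensor kept to mucosal epithelia, where it is known from goblet cells. It was counted at 1.14 to 2.77 CPM (median 1.95) in tdTom− and 113 to 186 CPM (median 139) in tdTom+ libraries, a 72.9-fold ratio of means and a log2 fold change of 6.18 ± 0.13 (adjusted p = 1.6e-13). Its widely expressed relative Ern1, IRE1 alpha, ran from 39.2 to 51.7 CPM (median 45.5) in tdTom− and from 59.9 to 79.3 CPM (median 73.3) in tdTom+ libraries, a log2 fold change of 0.65 ± 0.07 (adjusted p = 3.6e-06). Per kb of exon, Ern2 lay above Ern1 in all 8 tdTom+ libraries, at a ratio of levels of 4.61 to 6.45, and below it in all 8 tdTom− libraries, at a ratio of 0.0634 to 0.168.

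Eif2ak3, the PERK kinase that slows translation under stress, was the second of the sensors, at 22.0 to 28.0 CPM (median 27.4) in tdTom− and 56.6 to 103 CPM (median 78.3) in tdTom+ libraries, a log2 fold change of 1.52 ± 0.10 (adjusted p = 7.6e-09). Xbp1 stood at 129 to 151 CPM (median 141) and 262 to 358 CPM (median 309), a log2 fold change of 1.12 ± 0.06 (adjusted p = 1.8e-09). Gene counts do not separate spliced from unspliced Xbp1 mRNA, so they give the amount of transcript and not the activity of IRE1. Atf6 rose by 0.65 ± 0.08, from 42.2 to 55.7 CPM in tdTom− to 62.0 to 95.1 CPM in tdTom+ libraries (adjusted p = 9.4e-06).

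At the threshold of 0.01 the 10 degradation genes were the most mixed class: 6 rose, 1 fell and 3 did not pass. The largest differences among well expressed genes were in Edem3 and Edem2, mannosidase-related proteins that mark glycoproteins for disposal. Edem3 was counted at 50 to 80.6 CPM (median 68.6) in tdTom− and 155 to 270 CPM (median 220) in tdTom+ libraries, a log2 fold change of 1.68 ± 0.11 (adjusted p = 1.7e-08). Edem2 ran from 42.3 to 50.8 CPM and from 84.5 to 123 CPM, a log2 fold change of 1.23 ± 0.07 (adjusted p = 4.4e-09). Both had separate ranges, whereas those of Edem1, with a log2 fold change of 0.55 ± 0.10, overlapped and 1 of 8 mice went the other way.

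Herpud1, a stress-induced scaffold of the ubiquitin ligase complex, was the remaining degradation gene with separate ranges, at 70.5 to 95.7 CPM and 131 to 243 CPM, a log2 fold change of 0.97 ± 0.08 (adjusted p = 1e-07). The core of that complex moved little. Syvn1, the ligase HRD1, was counted at 48.0 to 84.1 CPM (median 69.0) in tdTom− and 67.1 to 103 CPM (median 81.9) in tdTom+ libraries, a log2 fold change of 0.33 ± 0.09 (adjusted p = 0.00415) that no longer passed with no replicate block (adjusted p = 0.0268) or without mice 7 and 8 (adjusted p = 0.0203), nor without mouse 1, 2 or 8 alone (adjusted p = 0.0117 to 0.0138). Its partner Sel1l had a log2 fold change of 0.17 ± 0.09 (adjusted p = 0.108), and the lectin Os9, which hands glycoproteins to Sel1l, one of 0.19 ± 0.07 (adjusted p = 0.0404). Each of these last 2 genes was higher in 6 of 8 mice.

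The Derlins, membrane proteins of the retrotranslocation channel, differed from one another. Derl1 was lower in tdTom+ cells of all 8 mice, at 104 to 129 CPM (median 120) in tdTom− and 91.6 to 113 CPM (median 101) in tdTom+ libraries, a log2 fold change of -0.23 ± 0.05 (adjusted p = 0.00181) that became -0.13 and did not pass without mouse 3 (adjusted p = 0.0677). Derl2 had a log2 fold change of 0.14 ± 0.06 (adjusted p = 0.0467), which was 0.22 and passed without mouse 3 (adjusted p = 0.00755). In that fit the median of all genes tested also moved, from 0.02 to 0.12, and these moves cannot be told apart from that shift. The differences in mouse 3 itself were -0.15 for Derl1 and 0.29 for Derl2. Derl3 rose in all 8 mice but at a low level, with 6 counts in its lowest library, from 0.274 to 1.92 CPM (median 0.469) to 1.74 to 5.2 CPM (median 3.28), a log2 fold change of 2.45 ± 0.26 (adjusted p = 1.6e-06). Its highest tdTom− library, that of mouse 7, also held the most plasma cell marker RNA: 3700 CPM summed over 8 markers, against 424 to 1390 CPM in the other 7 tdTom− libraries. In the tdTom+ libraries the same 8 markers summed to 16.2 to 453 CPM, with Mzb1, Ighm, Cd79a and Tnfrsf17 at 0 in some libraries. Of the 6 markers tested, 4 were lower than in tdTom− cells. The others, Ighm and Pou2af1, did not pass, with log2 fold changes of -2.03 and 0.83 (adjusted p = 0.0111 and 0.0166). Without mouse 7 the tdTom− range of Derl3 was 0.274 to 0.678 CPM and its log2 fold change 2.86. The part of plasma cell RNA in these values was not tested.

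Set side by side, the classes differed in the share of genes that rose at the threshold of 0.01. Among folding genes 23 of 27 rose and 2 fell, with a median log2 fold change of 0.73. Among stress sensors 5 of 5 rose, with a median of 1.12. Among degradation genes 6 of 10 rose and 1 fell, with a median of 0.44. At a threshold of 0.05, 8 of 10 degradation genes and 23 of 27 folding genes rose. The contrast in counts between these 2 classes thus depended on the threshold. Without mouse 3, at 0.01, 7 of 10 degradation genes rose. In that fit 4529 of all genes were higher and 3626 lower, against 3956 and 4600 with all 8 mice. The median of the degradation genes also varied most among mice, from -0.04 in mouse 5 and 0.10 in mouse 6 to 0.75 in mouse 7, whereas it lay between 0.49 and 0.87 for folding genes and between 0.93 and 1.35 for sensors. For all genes tested the median in a mouse lay between -0.13 and 0.05. In every mouse the median of the sensors was above that of the folding genes. With 5 genes, that sensor median was the value of Xbp1 in every mouse. Ern1 and Atf6, each with a log2 fold change of 0.65, lay below the folding median of 0.73. The genes were chosen with earlier results known, so these medians are descriptions and carry no test.

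**Figure D3:**
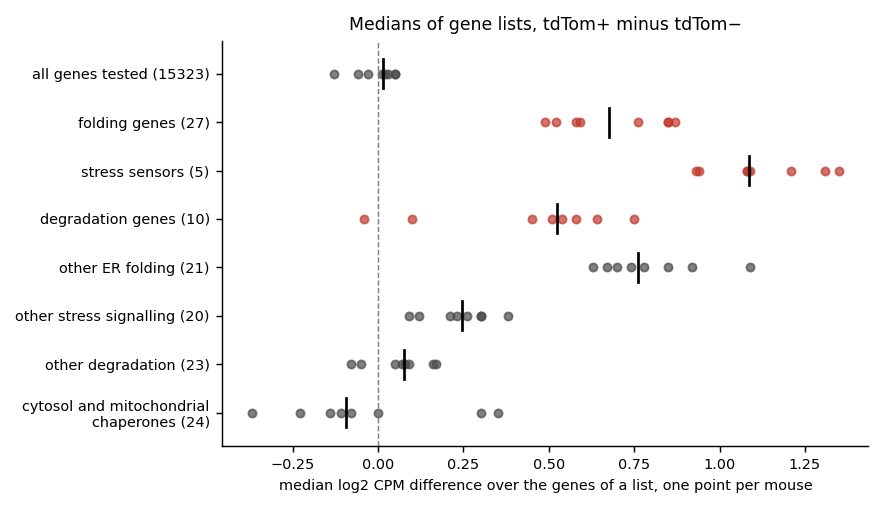
Median log2 CPM difference, tdTom+ minus tdTom−, over the genes of each list (number of genes tested in brackets), with 1 point per mouse and a bar at the median of the 8 mice; the classes of the 42 genes are red and the comparison lists grey. Folding genes and sensors lie above 0.4 in every mouse, degradation genes reach down to -0.04, and other degradation genes and chaperones outside the ER lie around 0.

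Related genes were compared directly by taking, within each mouse, the log2 difference between the fractions for one gene minus that for the other. In all 9 pairs examined the sign was the same in 8 of 8 mice, so that each reached p = 0.00781 in a two-sided exact sign-flip test, the smallest that 8 mice allow, and 0.00781 after adjustment over the 9 pairs (threshold 0.05). Several pairs share a gene and are not independent. The genes were chosen with earlier results known, and no other pairs were examined as a background. Of single genes, 50.3% of all tested had the same sign in all 8 mice. The largest gap was between Ern2 and Ern1, at 5.49 ± 0.47 log2 units (SD, n = 8 mice, range 5.07 to 6.41). Derl3 exceeded Derl1 by 2.60 ± 0.75 and Derl2 by 2.23 ± 0.73, and in both the smallest gap, 0.92 and 0.61, was in mouse 7. Derl2 exceeded Derl1 by 0.36 ± 0.13, although Derl2 by itself did not pass. Edem1 lagged behind Edem3 by 1.13 ± 0.20 and behind Edem2 by 0.68 ± 0.20, while the gap between Edem2 and Edem3 reached down to 0.04 in mouse 6. Ero1lb exceeded Ero1l by 0.61 ± 0.45, with a range of 0.11 to 1.43, and Calr exceeded Canx by 0.69 ± 0.11, with a range of 0.58 to 0.85.

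**Figure D4:**
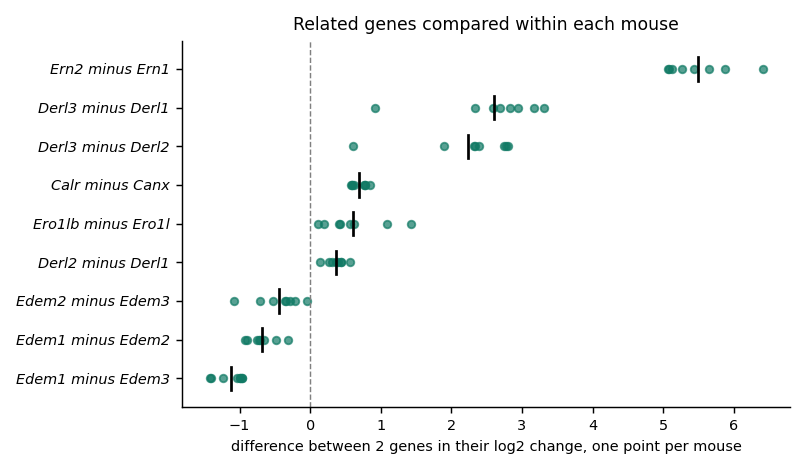
Difference between 2 related genes in their log2 change between the fractions, 1 point per mouse with a bar at the mean of 8 mice. All points of a pair lie on the same side of 0; the 8 points of Ern2 minus Ern1 lie above 5, and those of Calr minus Canx between 0.58 and 0.85.

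Levels can be set between genes approximately once divided by exon length. That length covers all annotated exons of a gene, such as 9060 bases for Erp29, whichever transcript is expressed. P4hb was the highest of the 42 genes in both fractions, at a mean of 1010 CPM per kb in tdTom− and 631 CPM per kb in tdTom+ cells. In tdTom− cells Calr (220 CPM per kb), Ppib (176), Pdia3 (145) and Hspa5 (130) followed. In tdTom+ cells the next were Calr (310 CPM per kb), Txndc5 (263), Ppib (260) and Pdia3 (249). The gap between Txndc5 and Pdia3 in tdTom+ cells was within the spread of libraries, as Txndc5 was above Pdia3 in 5 of 8 of them, whereas in tdTom− cells it was below Pdia3 in all 8. Within the Edem family Edem1 was the highest per kb in all 8 tdTom− libraries, at a median of 23.1 CPM per kb against 13.1 for Edem2 and 10.8 for Edem3. In tdTom+ libraries the medians were 31.5, 31.9 and 34.4 CPM per kb, and their order changed from library to library. Derl3, despite its rise, stayed below Derl1 and Derl2 per kb in all 16 libraries.

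**Figure D5:**
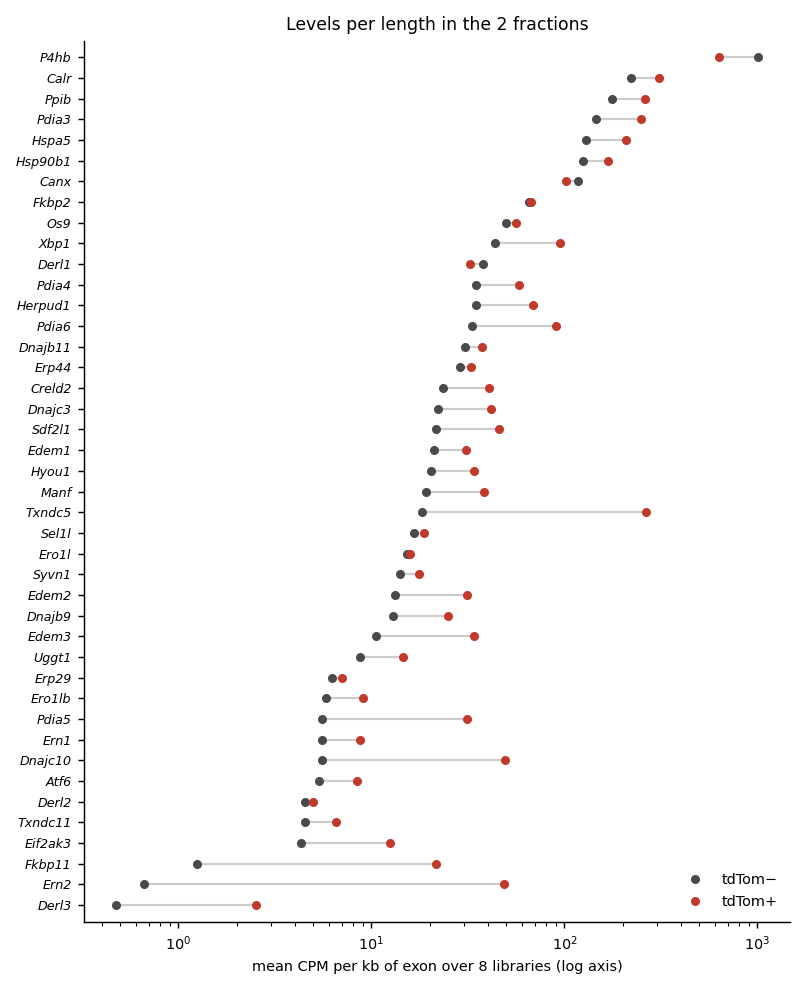
Mean level per kb of exon over 8 libraries, on a log axis, of the 42 genes in tdTom− (grey) and tdTom+ (red) cells, ordered by the level in tdTom− cells. P4hb is the highest in both fractions, Txndc5 moves from 18.2 to 263 CPM per kb, and Ern2 and Derl3 are among the lowest in tdTom− cells.

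Other genes of the same pathways were examined as lists, whose counts can be read against the 25.8% of all genes tested that were higher and the 30.0% that were lower. Of 21 other ER folding genes tested, from a list of 24, 16 rose and 3 fell, with a median log2 fold change of 0.86. Agr2, a disulfide isomerase needed for mucin production and itself one of the goblet markers above, rose by 6.18 and was counted at 20.4 to 40.3 CPM in tdTom− and 1700 to 2820 CPM in tdTom+ libraries. The prolyl isomerase Fkbp9 rose by 2.68 and the collagen prolyl hydroxylase P3h1 by 2.02, and Pdia2 was counted at 0 to 0.109 CPM in tdTom− and 0.932 to 2.04 CPM in tdTom+ libraries. P3h1 was also low, at 0.109 to 0.388 CPM and 0.612 to 1.17 CPM in the respective fractions. Of 20 other genes of stress signalling, 9 rose and 6 fell, with a median of 0.21. The transcription factors Bhlha15 (MIST1), Creb3l4 and Creb3l1, known from professional secretory cells, rose by 5.66, 5.14 and 5.07, and Chac1, a target of PERK signalling, by 4.22. Chac1 counts were low, at 0 to 0.639 CPM in tdTom− and 1.28 to 12.6 CPM in tdTom+ libraries. Creb3l3, a factor of the liver and intestinal absorptive epithelium that was singled out after its values were seen, fell by 3.29 on the log2 scale. Ddit3, which encodes CHOP, and Ppp1r15a, which encodes GADD34, are targets of PERK signalling as well and were also singled out after their values were seen. Their log2 fold changes of -0.18 ± 0.11 and 0.38 ± 0.12 did not pass (adjusted p = 0.166 and 0.0105). Trib3, a target of the same arm named after its value was seen, fell by 1.15 on the log2 scale and was lower in 8 of 8 mice (adjusted p = 0.0001). Atf4, from the same list and also named after its value was seen, rose by 0.62 and was higher in 8 of 8 mice (adjusted p = 1.7e-07).

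Of 23 other degradation genes, 9 rose and 5 fell, with a median log2 fold change of 0.01. Selenos and Selenok, selenoproteins of the degradation complex, rose by 1.30 and 1.25, and Erlin1 and the ligase Marchf6, which act on sterol-regulated substrates, fell by 1.18 and 1.06 on the log2 scale. Vcp, the ATPase that extracts proteins from the membrane, was singled out after its value was seen and had a log2 fold change of 0.01 ± 0.05 (adjusted p = 0.879). Of 24 genes for cytosolic and mitochondrial chaperones, 1 rose (Bag1, by 0.65) and 7 fell, with a median of -0.02, so that 4.17% were higher and 29.2% lower, and the difference from the chaperones of the ER was not tested. The largest of these falls were in Dnaja1, Hspa9 and Trap1, at log2 fold changes of -0.63, -0.49 and -0.37. Of 12 genes that respond to heat shock or tissue handling, 5 rose, among them Fosb by 1.31, Atf3 by 0.98, Egr1 by 0.89 and Ier2 by 0.86, while the heat shock gene Hspa1a was counted at 173 to 398 CPM in tdTom− and 218 to 404 CPM in tdTom+ libraries (adjusted p = 0.834). The part of these handling-responsive genes in the results for the ER was not tested.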

How the data were processed

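Gene counts of 16 small intestinal libraries were used as deposited. The authors prepared stranded TruSeq mRNA libraries, and their processing notes list TopHat2 2.1.1, Subread 1.5.2, DESeq2 1.14.1 and build GRCm38.p3; the file headers name featureCounts 1.5.0-p1, with reads assigned to exons on the reverse strand. Symbols were matched to 44585 of 45513 identifiers. The 42 genes, the classes and the comparison lists were chosen with earlier results of these data known. All 42 genes are reported, and of each comparison list the 4 genes with the largest absolute log2 fold change among those that passed. Counts were normalised by TMM and tested with the quasi-likelihood test of edgeR 4.0.16 (R 4.3.3), with mouse as a block, over 15323 genes kept by filterByExpr, with Benjamini-Hochberg adjustment and a threshold of 0.01. The SE of a log2 fold change was derived as its absolute value divided by the square root of the F statistic of that test. The study's methods used DESeq2 and name no block. The fractions were paired because both came from each mouse: deviations from the group means correlated at 0.245 to 0.634 for libraries of the same number, and -0.0569 on average otherwise. The fit was tested on simulated counts. Pairs of genes were compared on log2 CPM with a prior count of 2, at a threshold of 0.05. Adjusted p-values are over all genes tested. Alternatives were DESeq2 1.42.0, limma-voom (limma 3.58.1), other scalings, filters and thresholds, and each mouse left out.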

Additional observations from a re-analysis of the deposited data

Results flagged for a closer look

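Within each fraction, the highest and the lowest of the 8 log2 values of each gene were examined for a gap to the nearest other library that exceeded Dixon's critical share of the whole range for 8 values. Of 84 sets of values, 4 held such a library, where chance alone gives about 1 in 20 sets, or 4.2. All 4 were libraries of mouse 7. P4hb was lowest in the tdTom− library of mouse 7, with a gap of 0.582 of the range, at a log2 CPM of 10.92 against 11.4 to 11.74 in the others. Os9 was lowest in the same library, with a gap of 0.551, at 7.32 against 7.6 to 7.83. Derl3 was highest there, with a gap of 0.564, at 1.01 against -1.43 to -0.37. Herpud1 was highest in the tdTom+ library of mouse 7, with a gap of 0.535, at 7.93 against 7.03 to 7.45. Without mouse 7 the log2 fold changes were -0.75 for P4hb, 0.13 for Os9, 2.86 for Derl3 and 0.89 for Herpud1.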

How the results depend on the processing

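With no replicate block, 32 of the 42 genes were higher and 2 lower, against 34 and 3 in the paired fit, and 3473 and 4133 of all genes against 3956 and 4600. Without that block, and in DESeq2 with no replicate block, 1 folding gene was lower in place of 2. With at least 10 counts required in every library, 1 of the 42 genes was lower (1 folding and 0 degradation genes), Derl3 could not be tested, and the median log2 fold change of all genes moved from 0.02 to 0.12, as it did without mouse 3, so small differences should be read relative to that shift. Without mice 7 and 8 (added after the data were seen), 1 folding gene was lower. At a threshold of 0.05, 36 of the 42 genes were higher and 3 lower, and 4792 and 5229 of all genes. Of the degradation genes 8 were then higher in place of 6. Leaving out each mouse gave 1 to 3 lower genes in all, 1 to 2 lower folding genes and 0 to 1 lower degradation genes; the number of higher genes was 31 to 35. Where a log2 fold change of 1 or more in either direction was also required, 13 genes were higher (7 folding, 3 sensor and 3 degradation genes) and 0 lower (0 folding and 0 degradation), and 1740 and 1758 of all genes. Scaled by total counts, Ero1l and Fkbp2 changed sign, to log2 fold changes of -0.00488 and -0.0283. Apart from the requirement on fold change, 31 of the 41 genes with a value under every alternative kept sign and side of the threshold throughout. The 9 pair differences kept their sign under every alternative. With the same sign in all 8 mice, leaving 1 out could not change it, and with no replicate block the mean differences are the same by construction. Only a prior count of 0.5 and counts thinned to the smallest library total could have changed a sign. With 1 mouse left out their test cannot go below 0.0156, so it says nothing of their stability.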

Other observations

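In mice 5 and 6 the class medians stood apart in several lists at once. These mice had the lowest medians of log2 difference between the fractions for the 10 degradation genes (-0.04 and 0.10), the 5 sensors (0.93 and 0.94) and the 23 other degradation genes (-0.08 and -0.05). They had the highest medians for the 24 cytosolic and mitochondrial chaperones (0.30 and 0.35), where the other 6 mice lay between -0.37 and 0. Mice 5 and 6 did not stand apart for the 27 folding genes (0.49 and 0.58, with 0.52 in mouse 8). Nor did they for the 21 other ER folding genes (0.70 and 0.85, with 0.63 to 1.09 in the other mice). The medians of all genes in these mice were 0.05 and 0.05. The mice were noticed after the values were seen, and the difference was not tested.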
